A study of Homo sapiens with 6 samples.

Results

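The nuclear pore and its transport receptors were followed by the mRNA levels of 41 genes, out of 11963 genes named on the arrays. These were all genes measured under a symbol that starts with NUP, KPNA, KPNB, IPO, XPO or TNPO followed by a digit: 21 nucleoporin genes and 20 genes of importins, transportins and exportins. They had 92 of the 22215 probe sets tested. A gene was represented by its probe set with the highest mean over all arrays, and the other 51 probe sets served as a check. HK2 cells, the line used, derive from proximal tubule epithelium of a human kidney. They were transfected at 30% confluence with siRNA against OCRL, a phosphoinositide phosphatase mutated in Lowe syndrome, or with non-targeting siRNA as control, with Dharmafect 4 in both cases, and total RNA was taken after 96 h. Each group had 3 arrays, which the labels describe as biological replicates from independent experiments. Only 1 cell line and 1 time point were measured, and the labels name a single OCRL siRNA treatment, so effects of the siRNA itself and of the lower OCRL level cannot be told apart.

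The nuclear pore complex is a ring-shaped assembly in the nuclear envelope. Scaffold nucleoporins of the outer ring (the Y complex) and the inner ring hold the pore in place, and nucleoporins with phenylalanine-glycine repeats fill its channel. Soluble receptors carry cargo through this channel: importin alpha adaptors, encoded by KPNA genes, bind classical nuclear localisation signals and pair with importin beta (KPNB1), other importins and transportins bind cargo directly, and exportins carry proteins and RNA out. The small GTPase Ran gives this traffic its direction.

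OCRL was lowered on every treated array. Its brighter probe set read 9.49, 9.48 and 9.50 (log2 value) on the control arrays and 7.52, 7.49 and 7.40 on the OCRL siRNA arrays. This is a log2 difference of -2.02 (SE 0.048), and the exact two-sided permutation test over 20 assignments gave p = 0.10, the smallest that 3 arrays against 3 can give. Array medians were 7.23 to 7.24 in controls and 7.27 to 7.30 after OCRL siRNA, and arrays of different groups correlated at 0.994 to 0.995 (Pearson's r over probe sets, which are not replicates). By limma, 5137 probe sets (23.1%) passed an adjusted p of 0.05, 2939 (13.2%) of them higher and 2198 (9.89%) lower. When each array was centred on the same median the split became 2274 higher and 3138 lower. Taken per gene, 26.0% of all genes were called, 15.5% higher and 10.5% lower. Of 8 renal epithelial marker genes 2 were called higher and 4 lower, and the mean of the list was 9.23 to 9.35 on control and 9.14 to 9.17 on OCRL siRNA arrays. Differences in that list ran from -1.04 in CDH6 to 0.61 in MME. In it ANPEP and AQP1 lay below the lower quartile on every array. ANPEP, 1 of the 2 called higher, lost its call without 4 of the 6 arrays in turn. Markers of leukocytes (7 genes, 0 called, 0 at an unadjusted p under 0.05, means 5.23 to 5.46 and 5.28 to 5.34), endothelium (8 genes, 1 called higher, ERG, means 5.01 to 5.20 and 5.20 to 5.26) and fibroblasts or muscle (10 genes, 2 called lower, LUM and MYH11, means 6.21 to 6.28 and 6.15 to 6.18) had low means in both groups. Single genes of the last list were not low. LUM was at 9.23 in controls and 8.62 after OCRL siRNA and COL1A1 at 7.67 and 7.60, above the array medians. MYH11 lost its call without any of 5 arrays, all but control replicate 1.

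Nucleoporin genes under NUP symbols rose where they were called. Of 21, 8 were called higher, 0 lower and 13 did not pass by limma; the share called higher was 38.1%, where 15.5% of all genes were called higher and 10.5% lower. At an unadjusted p under 0.05 there were 9 higher and 0 lower. The rises were small, 1.11-fold to 1.20-fold in 7 of the 8 genes and 1.67-fold in NUP62CL. The median log2 difference was 0.09 for the nucleoporins and 0.00 for all genes. The 12 pore proteins with other symbols, described further on, had 0 called. Of 20 transport receptor genes, 1 was called higher and 3 lower, and their median was 0.02. Over all genes 15.5% were called higher, 10.5% lower and 26.0% in either direction, so the receptor count was near that share. The members were bright, with list means of 10.25 to 10.51 per array against array medians of 7.23 to 7.30. Calls were more frequent among bright probe sets. With dim probe sets left out, 3184 of 11108 probe sets were called higher and 2467 lower. In that setting 9 of 21 nucleoporins were higher and 0 lower, and of 18 receptors 2 were higher and 4 lower. Groups did not overlap in 11 nucleoporins with higher values and 1 with lower values, against 25.1% and 19.8% of all genes, and in 4 and 4 receptors. The share without overlap in either direction was 44.9% over all genes, and the receptors, with 8 of 20, were near it.

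The genes with the largest called differences were NUP62CL, KPNA3, NUP98, NUP62, NUP85 and NUP54. Their promoters are shown for the size of these differences alone. In the probe set used for each gene KPNA3 was called lower and the others higher. The sequences are from RefSeq (GRCh38.p14), the 250 bases before the annotated start of each gene, 5′ to 3′ on the gene's strand. Capitals mark exact matches to any of the motifs whose letters are given further on.

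NUP62CL (chrX:107206434-107206683, minus strand): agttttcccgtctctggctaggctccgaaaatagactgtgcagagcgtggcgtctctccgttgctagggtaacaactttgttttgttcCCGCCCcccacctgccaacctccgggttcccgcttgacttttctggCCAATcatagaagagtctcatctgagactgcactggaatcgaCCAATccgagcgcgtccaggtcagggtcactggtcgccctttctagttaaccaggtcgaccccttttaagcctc
KPNA3 (chr13:49792683-49792932, minus strand): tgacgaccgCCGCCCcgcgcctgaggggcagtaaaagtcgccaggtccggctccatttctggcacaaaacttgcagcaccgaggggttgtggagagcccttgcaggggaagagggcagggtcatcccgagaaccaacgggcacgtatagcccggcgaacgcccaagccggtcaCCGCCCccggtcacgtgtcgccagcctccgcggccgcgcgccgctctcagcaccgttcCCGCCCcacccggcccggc
NUP98 (chr11:3797547-3797796, minus strand): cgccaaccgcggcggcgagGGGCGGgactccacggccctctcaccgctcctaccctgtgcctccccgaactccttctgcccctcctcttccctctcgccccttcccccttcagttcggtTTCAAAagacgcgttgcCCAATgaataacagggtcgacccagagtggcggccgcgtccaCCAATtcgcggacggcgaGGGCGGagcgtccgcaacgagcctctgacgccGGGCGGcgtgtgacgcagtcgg
NUP62 (chr19:49929505-49929754, minus strand): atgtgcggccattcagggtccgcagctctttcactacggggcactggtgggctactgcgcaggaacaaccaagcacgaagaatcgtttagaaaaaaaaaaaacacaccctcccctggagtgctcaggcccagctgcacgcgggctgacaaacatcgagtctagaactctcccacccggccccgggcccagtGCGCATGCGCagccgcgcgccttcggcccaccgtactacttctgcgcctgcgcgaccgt
NUP85 (chr17:75205429-75205678, plus strand): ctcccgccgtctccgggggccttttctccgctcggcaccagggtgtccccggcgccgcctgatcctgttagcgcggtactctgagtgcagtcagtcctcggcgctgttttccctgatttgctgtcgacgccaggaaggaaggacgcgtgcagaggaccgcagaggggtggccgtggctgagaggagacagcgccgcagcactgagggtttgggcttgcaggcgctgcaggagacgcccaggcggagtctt
NUP54 (chr4:76148398-76148647, minus strand): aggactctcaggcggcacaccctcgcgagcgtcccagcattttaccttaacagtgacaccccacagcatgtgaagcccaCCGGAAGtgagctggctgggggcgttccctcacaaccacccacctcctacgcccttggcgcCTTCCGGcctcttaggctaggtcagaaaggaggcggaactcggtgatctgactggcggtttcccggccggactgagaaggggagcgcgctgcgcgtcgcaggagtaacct

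The channel nucleoporins NUP62 and NUP54, whose phenylalanine-glycine repeats form part of the diffusion barrier, both rose. NUP62 read 10.63, 10.66 and 10.67 on the control arrays and 10.92, 10.90 and 10.91 on the OCRL siRNA arrays. The groups were far apart for the spread within them, at 10.65 ± 0.0221 (SD, n = 3) and 10.91 ± 0.00945 (log2 difference 0.26, SE 0.040, adjusted p = 0.00436, limma). Its other probe set also rose, from 8.07 ± 0.0811 to 8.30 ± 0.0625, and the call of NUP62 held in all 14 settings tried for it. NUP54 read 11.78, 11.69 and 11.67 in controls and 11.98, 11.90 and 11.93 after OCRL siRNA (log2 difference 0.22, SE 0.050, adjusted p = 0.0187, limma). All 3 OCRL siRNA values lay above all 3 controls, but the call was lost without OCRL siRNA replicate 1 or 3 or control replicate 2 or 3 (adjusted p = 0.0618 to 0.0702) and after median centring (0.0508), out of 0.000482 to 0.747 over 15 settings. The other NUP54 probe set lay below the lower quartile on every array, at 4.07 ± 0.113 and 3.78 ± 0.169, with a difference of -0.29 that did not pass. NUP58, the third member of the channel complex, was at 7.97 ± 0.141 and 8.07 ± 0.0458 and did not pass (log2 difference 0.10, 95% interval -0.08 to 0.28).

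NUP62CL, a gene related in sequence to the C-terminal part of NUP62, had the largest rise of the members. Its values were 8.42, 8.01 and 8.17 in control cells and 8.99, 8.81 and 9.02 after OCRL siRNA. The lowest treated array was above the highest control, although the controls themselves spread over 0.208 (SD). The log2 difference was 0.74 (SE 0.110, adjusted p = 0.00382, limma), and the call held in all 14 settings tried. Without NUP62CL, whose place in the pore is not established by its symbol, 7 of 20 nucleoporins were called higher and 0 lower (median 0.08).

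In the Y complex, which coats the membrane on both faces of the pore, 1 of 6 genes under NUP symbols rose, close to the 15.5% of all genes called higher. SEH1L, a member of the complex under another symbol, is described with the other pore proteins. NUP85 read 10.89, 10.97 and 11.01 in controls and 11.17, 11.22 and 11.18 after OCRL siRNA, without overlap (log2 difference 0.23, SE 0.048, adjusted p = 0.0139, limma). Its call was lost without OCRL siRNA replicate 2, with an adjusted p of 0.0509, the highest over its 15 settings, of which the lowest was 0.000469. NUP37, NUP43, NUP107, NUP133 and NUP160 did not pass, with log2 differences from -0.07 to 0.09. NUP107 read 11.71, 11.78 and 11.75 against 11.81, 11.82 and 11.81, so the groups did not overlap, but the difference of 0.06 had a 95% interval of -0.04 to 0.16. For NUP160 the brightest probe set was not called (9.38 ± 0.108 and 9.47 ± 0.148), and both of its dimmer probe sets were. These rose from 6.40 ± 0.139 to 6.76 ± 0.103 and from 5.78 ± 0.305 to 6.33 ± 0.107 (log2 differences 0.36 and 0.55, adjusted p = 0.0238 and 0.0369, limma).

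NUP98 encodes a precursor that is cut into NUP98, a repeat nucleoporin, and NUP96, a part of the Y complex. Its brightest probe set read 9.86, 9.76 and 9.75 in controls and 10.08, 10.04 and 10.05 after OCRL siRNA. Every treated array was higher (log2 difference 0.27, SE 0.048, adjusted p = 0.00768, limma). The other probe sets did not follow. The second was at 9.63, 9.55 and 9.48 in controls and 9.47, 9.41 and 9.40 after OCRL siRNA, lower on every treated array (log2 difference -0.13, adjusted p = 0.137, limma), and the third differed by 0.03. With the mean of its 3 probe sets the difference of NUP98 was 0.06 and the call was lost (adjusted p = 0.393, the highest of 14 settings, of which the lowest was 0.000332).

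The inner ring anchors the channel complex to the membrane. Of 4 inner ring genes, NUP155 rose and NUP93, NUP188 and NUP205 did not pass. NUP155 read 10.70, 10.76 and 10.70 in controls and 10.93, 10.92 and 10.95 after OCRL siRNA (log2 difference 0.21, SE 0.041, adjusted p = 0.0107, limma), with the groups well apart and the call kept in all 14 settings. NUP205 read 10.56, 10.51 and 10.48 against 10.59, 10.63 and 10.66. It was higher on every treated array by a smaller amount (log2 difference 0.11, SE 0.045, adjusted p = 0.119, limma) and was called in 3 of 15 settings. NUP93 was at 11.45 ± 0.0497 and 11.42 ± 0.0531 and NUP188 at 9.04 ± 0.0971 and 9.07 ± 0.0473.

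NUP50, a mobile basket protein that binds importin alpha and helps release its cargo, rose. It read 11.19, 11.18 and 11.21 in controls and 11.35, 11.34 and 11.35 after OCRL siRNA (log2 difference 0.16, SE 0.039, adjusted p = 0.0281, limma). The replicates of each group were within 0.0159 (SD), and a second of its 4 probe sets rose by 0.28. The call of NUP50 was nevertheless lost without any of 5 arrays, all but control replicate 1 (adjusted p = 0.0746 to 0.0954), and after median centring (0.101), out of 0.00197 to 0.101 over 15 settings. The other basket gene measured under a NUP symbol, NUP153, was at 12.05 ± 0.0759 and 12.01 ± 0.0142.

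NUP210, a membrane glycoprotein that encircles the pore, read 8.03, 7.97 and 7.99 in controls and 8.23, 8.21 and 8.16 after OCRL siRNA. It rose by 0.20 (SE 0.043, adjusted p = 0.0153, limma) in its brightest probe set, and its other 4 differed by 0.04 to 0.20 without passing. Its call was lost without OCRL siRNA replicate 1 or 2 or control replicate 2 or 3 (adjusted p = 0.0516 to 0.0595, out of 0.00199 to 0.431 over 15 settings). Of the 3 genes of the cytoplasmic face 0 passed by limma, and an unadjusted p under 0.05 was reached by 0. NUP88 was at 10.91 ± 0.0183 and 10.94 ± 0.0126, NUP214 at 8.52 ± 0.0643 and 8.51 ± 0.00508, and NUP42 at 9.44 ± 0.0109 and 9.39 ± 0.0229. NUP42 was lower on each treated array, by 0.05 on average (95% interval -0.14 to 0.04).

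The nucleoporin count moved with the arrays used. It was 5 without OCRL siRNA replicate 1 or 2 or without control replicate 2 or 3, 6 without OCRL siRNA replicate 3 and 8 without control replicate 1, with 0 lower in each. Quantile normalisation gave 8 and median centring 6, also with 0 lower. Centring moved the median of the nucleoporins to 0.04 while that of all probe sets went from -0.01 to -0.05. When probe sets ending in _s_at or _x_at were left out, 2 of 15 were called higher, where 1274 of 11813 probe sets were. The background moved too. Of 22215 probe sets, 2939 were called higher in the main fit and 2108 to 2735 with 1 array left out. This count was 2746 after quantile normalisation and 2274 after median centring.

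**Figure D1:**
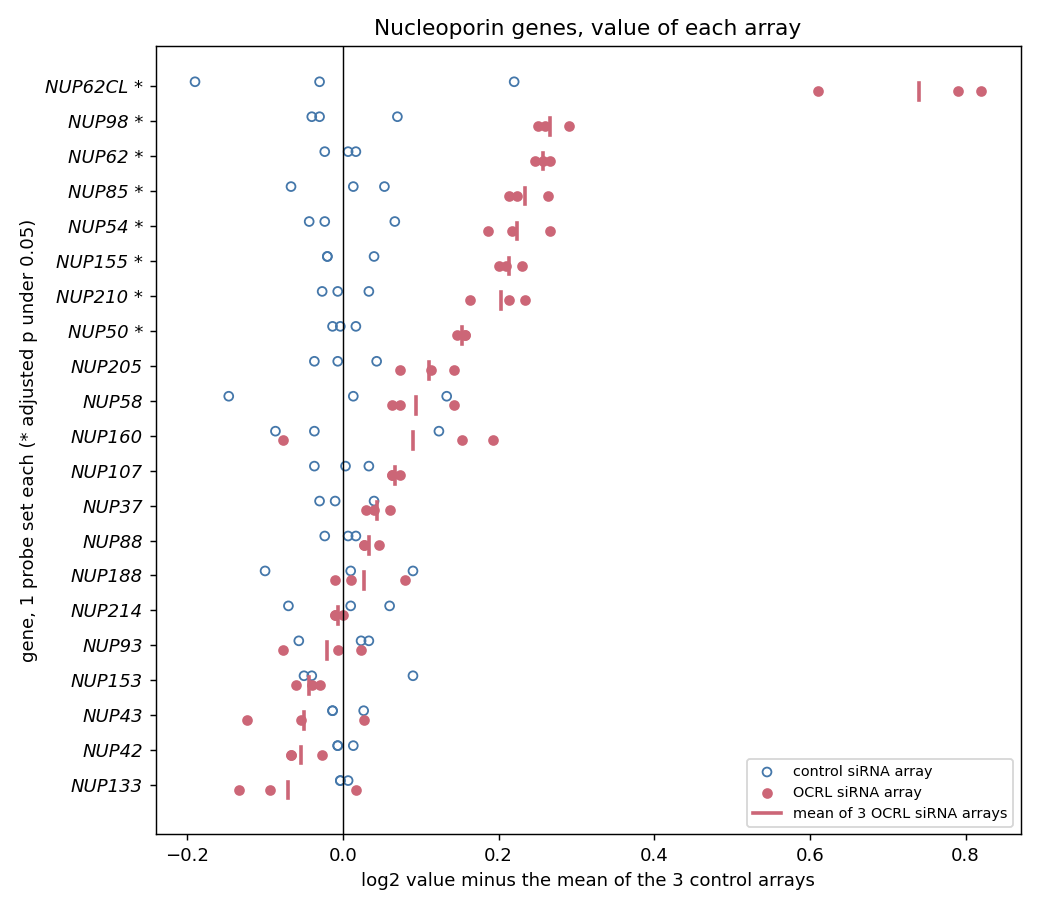
Values of the 21 nucleoporin genes on each array, as the log2 value minus the mean of the 3 control arrays (horizontal axis), with genes in order of their difference. Open circles are control siRNA arrays, filled circles OCRL siRNA arrays and red bars the mean of 3 OCRL siRNA arrays. The 8 genes with an asterisk passed an adjusted p of 0.05, and all of them lie to the right of their controls.

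Genes of S phase were called higher on the same arrays. Of 20 S phase markers 18 rose and 0 fell (median 0.36), where 15.5% of all genes were called higher and 10.5% lower. The list was chosen with earlier results of these data known. Its mean was 10.97 to 11.03 on control and 11.40 on each OCRL siRNA array. Thymidine kinase TK1 rose by 0.93 (SE 0.058), the helicase activator CDC45 by 0.78 (SE 0.056), the primase PRIM1 by 0.65 (SE 0.044) and the helicase subunit MCM7 by 0.59 (SE 0.045). Of these 18, MCM2, PCNA, GINS1 and POLA1 lost their calls without at least 1 array. PCNA lost its call without 5 of the 6 arrays in turn and POLA1 without each of the 6. The calls of PCNA and POLA1 were also lost after quantile normalisation or median centring. The mean of the 21 nucleoporins was 10.34 to 10.39 on control and 10.46 to 10.51 on OCRL siRNA arrays, and that of the 20 receptors was 10.25 to 10.29 and 10.25 to 10.27. The part of S phase in the nucleoporin differences was not tested.

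Among the importin alpha adaptors, KPNA3 and KPNA4 fell and KPNA1 rose. KPNA3 and KPNA4 are close paralogs of 1 subfamily. KPNA3 read 11.22, 11.06 and 11.06 in controls and 10.75, 10.63 and 10.68 after OCRL siRNA. The highest treated array lay below the lowest control, and the fall came to 1.34-fold. Its log2 difference was -0.43 (SE 0.062, adjusted p = 0.00330, limma). Its second probe set fell from 10.22 ± 0.0204 to 9.96 ± 0.00489 (log2 difference -0.26, SE 0.039), and the call held in all 15 settings tried for KPNA3.

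For KPNA4 the brightest probe set, at 9.38, 9.37 and 9.32 in controls and 9.24, 9.16 and 9.16 after OCRL siRNA, fell by 0.17 on the log2 scale (SE 0.045, adjusted p = 0.0382, limma). The second probe set read 9.50, 9.35 and 9.40 in controls and 8.59, 8.61 and 8.62 after OCRL siRNA. It fell 1.76-fold, the largest change among the 92 probe sets (log2 difference -0.82, SE 0.051, adjusted p = 0.000116, limma). The probe sets of KPNA4 thus pointed the same way with unequal sizes. The call of the brightest was lost without any of 5 arrays, all but OCRL siRNA replicate 1 (adjusted p = 0.0707 to 0.124). Over 15 settings for the gene the adjusted p ran from 0.000116, where the second probe set stood for it, to 0.124.

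KPNA1 read 10.00, 10.13 and 10.03 in controls and 10.24, 10.28 and 10.25 after OCRL siRNA, higher on each treated array (log2 difference 0.21, SE 0.050, adjusted p = 0.0251, limma). Its 6 probe sets had differences from -0.15 to 0.21, and 1 of them passed. The call was lost without any of 5 arrays, all but control replicate 2 (adjusted p = 0.0526 to 0.0844). Median centring (0.0609) and quantile normalisation (0.0509) also ended it, out of 0.00246 to 0.555 over 15 settings. KPNA2, an adaptor known for high levels in dividing cells, read 13.44, 13.46 and 13.48 in controls and 13.37, 13.36 and 13.31 after OCRL siRNA. All treated values were below the controls, and the difference did not pass (log2 difference -0.11, SE 0.041, adjusted p = 0.0928, limma), though it did in 5 of 15 settings. KPNA5 (6.23 ± 0.147 and 6.31 ± 0.0956) and KPNA6 (9.91 ± 0.0373 and 9.85 ± 0.0183) did not pass.

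Of 10 importin beta-type receptors, 1 was called, lower, near the 10.5% of all genes called lower. IPO4, an importin of histones and ribosomal proteins, fell from 9.04, 8.95 and 9.00 to 8.88, 8.71 and 8.78 (log2 difference -0.20, SE 0.057, adjusted p = 0.0448, limma). The groups did not overlap, but this call was lost without any of 5 arrays, all but OCRL siRNA replicate 1 (adjusted p = 0.0713 to 0.122, out of 0.0106 to 0.122 over 15 settings). IPO13, which carries cargo in both directions, read 7.39, 7.56 and 7.49 in controls and 7.61, 7.64 and 7.76 after OCRL siRNA. It was higher on every treated array without passing (log2 difference 0.19, SE 0.064, adjusted p = 0.0758, limma).

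Importin beta itself, KPNB1, was at 13.64 ± 0.0263 and 13.67 ± 0.00902 (log2 difference 0.03, 95% interval -0.07 to 0.12). TNPO1, the receptor of many RNA-binding proteins, was at 12.84 ± 0.0557 and 12.84 ± 0.0447, its paralog TNPO2 at 10.84 ± 0.0348 and 10.81 ± 0.00542, and TNPO3, which imports splicing factors rich in serine and arginine, at 10.33 ± 0.0428 and 10.44 ± 0.0738. IPO5, IPO7, IPO8 and IPO9 had log2 differences of 0.07, 0.00, -0.09 and 0.08. None of these 8 passed in the probe set used.

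Of the 4 exportins measured under these symbols 0 passed by limma in the probe set used, and there an unadjusted p under 0.05 was reached by 0. XPO1, the receptor of leucine-rich export signals, read 13.22, 13.18 and 13.17 in controls and 13.20, 13.21 and 13.26 after OCRL siRNA. The groups overlapped, and the 95% interval of the log2 difference was -0.07 to 0.13. The intervals were -0.09 to 0.23 for XPO4, -0.16 to 0.08 for XPO6 and -0.05 to 0.19 for XPO7. A second XPO6 probe set was lower on every treated array, with an interval of -0.24 to -0.02. It did not pass (log2 difference -0.13, adjusted p = 0.0828, limma).

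The count of 4 receptors called fell to 1 without OCRL siRNA replicate 2 or 3 or control replicate 1 or 3, to 2 without control replicate 2, and to 3 without OCRL siRNA replicate 1. It was 7, with 6 lower and 1 higher, when the most variable probe set stood for each gene, and the median of the receptors was then -0.12. After median centring 4 receptors were lower and 0 higher, with 3138 of 22215 probe sets lower. Over all probe sets, 5137 were called in the main fit and 3576 to 4898 with 1 array left out.

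**Figure D2:**
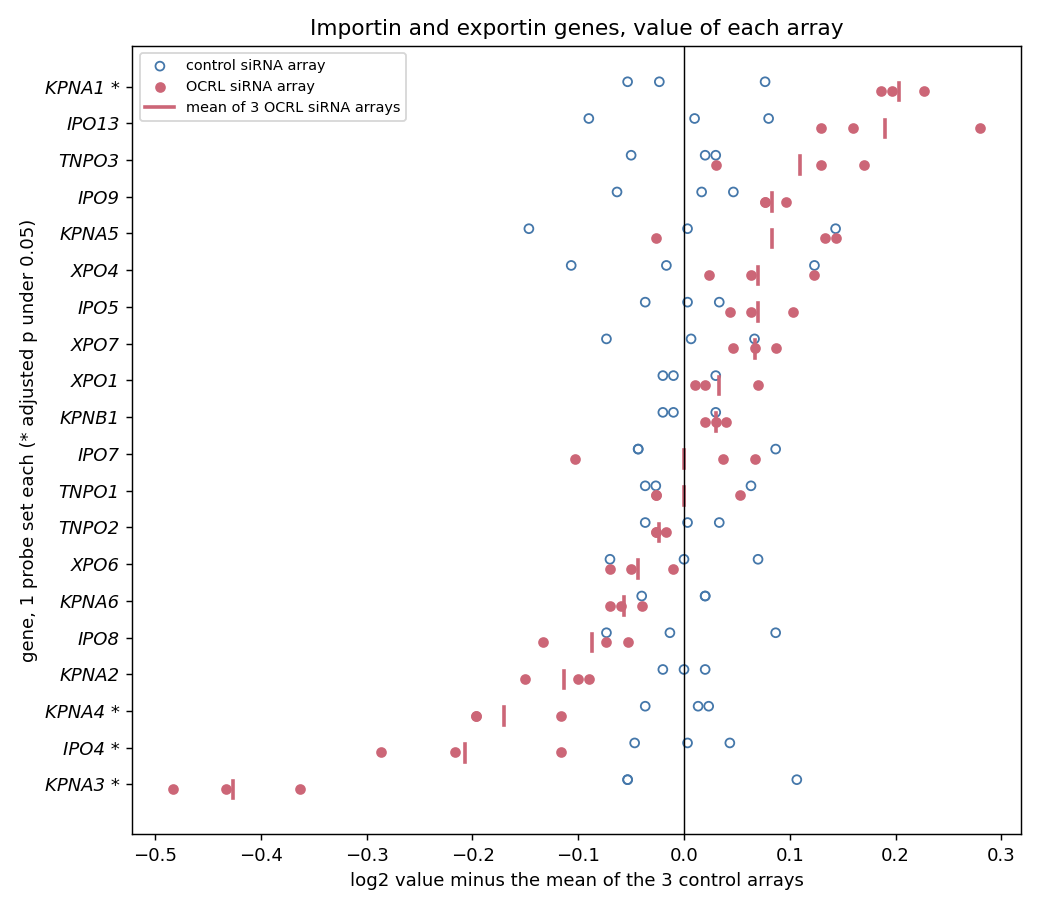
Values of the 20 importin, transportin and exportin genes on each array, as the log2 value minus the mean of the 3 control arrays (horizontal axis), with genes in order of their difference. Open circles are control siRNA arrays, filled circles OCRL siRNA arrays and red bars the mean of 3 OCRL siRNA arrays. Asterisks mark the 4 called genes, KPNA1 at the high end and KPNA4, IPO4 and KPNA3 at the low end.

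Probe sets of the same gene were compared for the 24 members that had more than 1. Of the 8 of these called by the brightest probe set, another probe set was called the same way in 4: NUP50, NUP62, KPNA3 and KPNA4. In 5 genes the brightest was not called and another was, higher in NUP160 and TNPO3 and lower in IPO9, KPNB1 and TNPO1. No member had probe sets called in both directions. TNPO1 was at 11.26, 11.07 and 11.11 in controls and 10.86, 10.71 and 10.81 after OCRL siRNA in its dimmest probe set (log2 difference -0.35, SE 0.067, adjusted p = 0.0106, limma), while its other 4 differed by -0.02 to 0.07. IPO9 was at 7.89, 7.72 and 7.81 against 7.50, 7.52 and 7.43 in its dimmer probe set, which fell by 0.32, and at 0.08 in its brighter. KPNB1 fell by 0.21 in 1 of 6 probe sets (adjusted p = 0.0456, limma), and TNPO3 rose by 0.18 in 1 of 3 (adjusted p = 0.0447, limma).

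**Figure D3:**
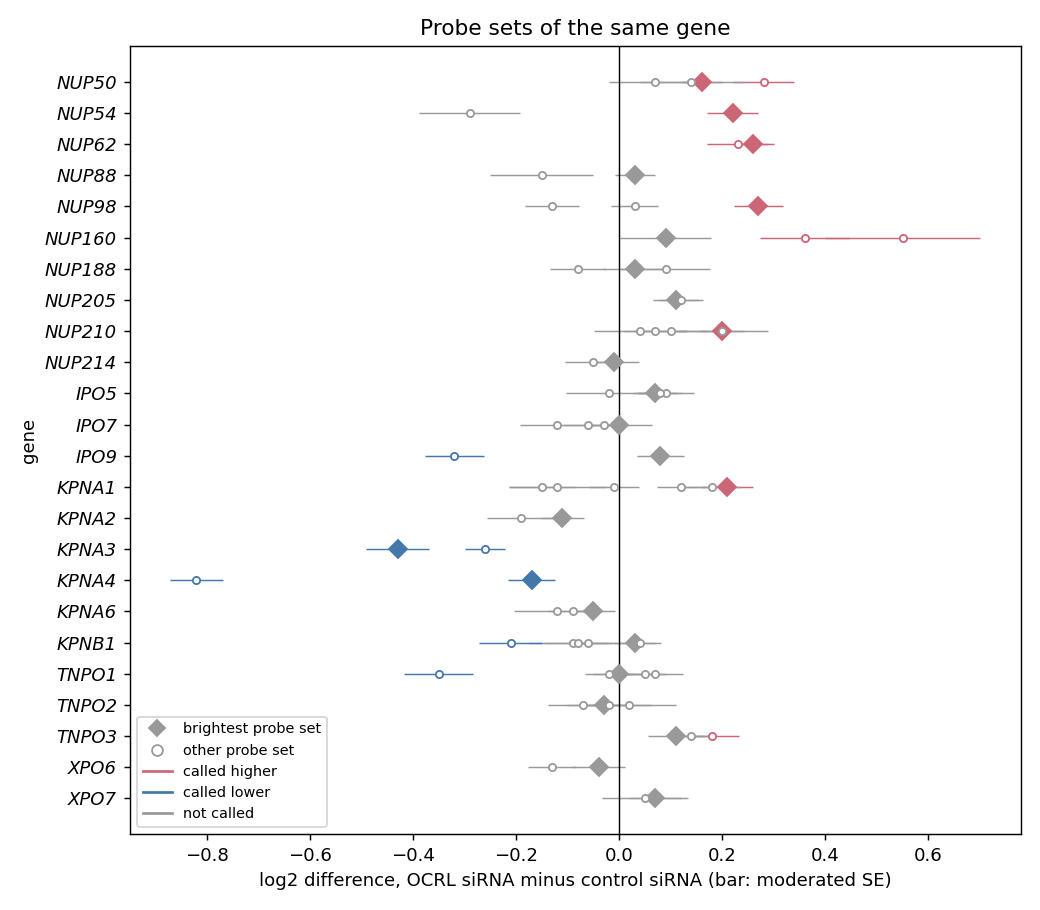
Log2 difference, OCRL siRNA minus control siRNA (horizontal axis, bars are the moderated SE), of every probe set of the 24 members with more than 1. Large diamonds are the brightest probe set of a gene and small circles the others; red marks a call higher, blue a call lower and grey none. The blue circle of KPNA4 at -0.82 lies farthest from 0, and TNPO1 and IPO9 have a blue circle apart from a grey diamond.

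Other genes of nuclear transport were taken from lists by function. Of 12 measured pore proteins with other symbols, such as TPR, RANBP2 and NDC1, 0 passed by limma, where 26.0% of all genes were called. Among these 12, 6 differences were above 0 and 6 below. An unadjusted p under 0.05 was reached by 1, SEH1L, a small Y complex member at 11.29 in control and 11.12 in OCRL siRNA cells (log2 difference -0.16, SE 0.048, adjusted p = 0.0510, limma). Of 13 genes of the Ran cycle and receptors with other symbols, 2 rose and 1 fell, which is 23.1% called and near the 26.0% of all genes. NXT1, a partner of the mRNA export receptor NXF1, rose by 0.27 (SE 0.057, adjusted p = 0.0151, limma) and its paralog NXT2 by 0.22 (SE 0.063, adjusted p = 0.0475, limma). RANBP17, the closest relative of XPO7, fell by 0.40 (SE 0.056, adjusted p = 0.00299, limma). RAN itself differed by -0.03, and the importin alpha exporter CSE1L by 0.01. NXT2 lost its call without any of 5 arrays, all but control replicate 1, and NXT1 without OCRL siRNA replicate 2 or 3 (adjusted p = 0.0506 and 0.0533).

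Of 15 mRNA export factors, 5 rose and 0 fell, 33.3% against 15.5% of all genes. THOC6 of the THO complex rose by 0.36 (SE 0.050), and ENY2 of the TREX-2 complex, which docks at the nuclear basket, by 0.27 (SE 0.044), both with every array left out in turn. The helicase DDX39A (0.19, SE 0.042), SEM1 (0.17, SE 0.041) and THOC1 (0.17, SE 0.047), the last named after its value was seen, lost their calls without 4, 5 and 5 of the 6 arrays in turn and after median centring. The median of this list was 0.04.

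**Figure D4:**
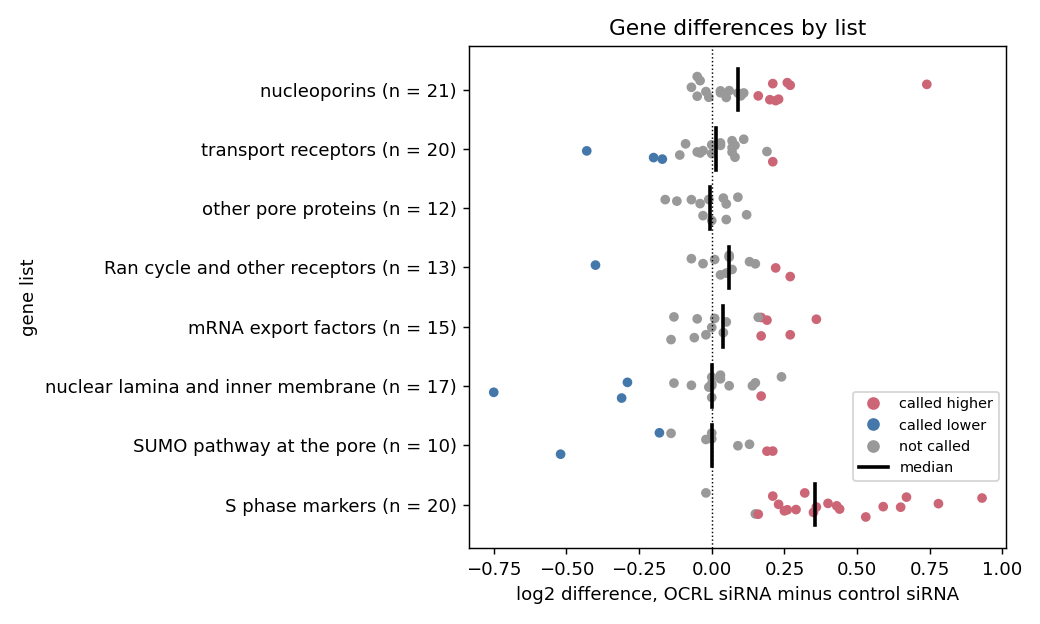
Log2 difference, OCRL siRNA minus control siRNA (horizontal axis), of each gene in the nucleoporin, receptor and related lists, with vertical scatter for visibility. Red points were called higher, blue lower and grey neither, and black bars are medians. The median of the nucleoporins is 0.09, that of the receptors 0.02 and that of the S phase markers 0.36.

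Promoter windows of 300 bases (250 before and 50 after the start, RefSeq, GRCh38.p14) were found for 36 of the 41 members and not for NUP43, KPNA4, KPNA5, KPNB1 and XPO7. They were searched on both strands for exact letters: E2F (TTTGGCGC, TTTCGCGC or TTTCCCGC), CCAAT box (CCAAT), NRF1 (GCGCATGCG), ETS (CCGGAAG), YY1 (AAGATGGCG), GC box (GGGCGG), CRE (TGACGTCA) and CHR (TTTGAA). A GC box read on the other strand can overlap an E2F match, and an NRF1 match can overlap its own reverse. E2F letters were in 1 of 20 nucleoporin windows (NUP155) and 1 of 16 receptor windows (IPO7), against 4.12% of the 9563 windows of genes named on the array and 11 of 18 windows of S phase markers. NRF1 letters were in 3 nucleoporin windows, NUP50, NUP62 and NUP107, and 0 receptor windows, against 3.00% of the array's genes. In NUP62 they start 59 bases before the gene's start and in NUP50 56 bases before it, and both of these genes were called higher. In NUP107, which was not called, they start 84 bases before it. YY1 letters were in 4 nucleoporin windows, NUP88, NUP160, NUP188 and NUP205, against 3.31%, and 0 of these 4 genes was called by its brightest probe set. CRE letters were in 3 (NUP42, NUP133 and NUP214) against 3.06%, and 0 of these 3 was called.

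ETS letters were in 8 of 20 nucleoporin windows and 3 of 16 receptor windows, against 15.2%, and NUP54 carries them in both orientations in the sequence shown. Of the 8 nucleoporins called higher, 2 had ETS letters, NUP50 and NUP54. CCAAT boxes were in 10 nucleoporin and 9 receptor windows, against 37.3%, with 2 in the sequence of NUP98 and 2 in that of NUP62CL. CHR letters were in 4 and 2 windows, against 11.0%. GC boxes were in 9 and 10, against 63.1%, and KPNA3 has 3 of them in the sequence shown. NUP85 has none of the letters in its printed bases. A match is a description of the letters and does not show that a factor binds there.

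**Figure D5:**
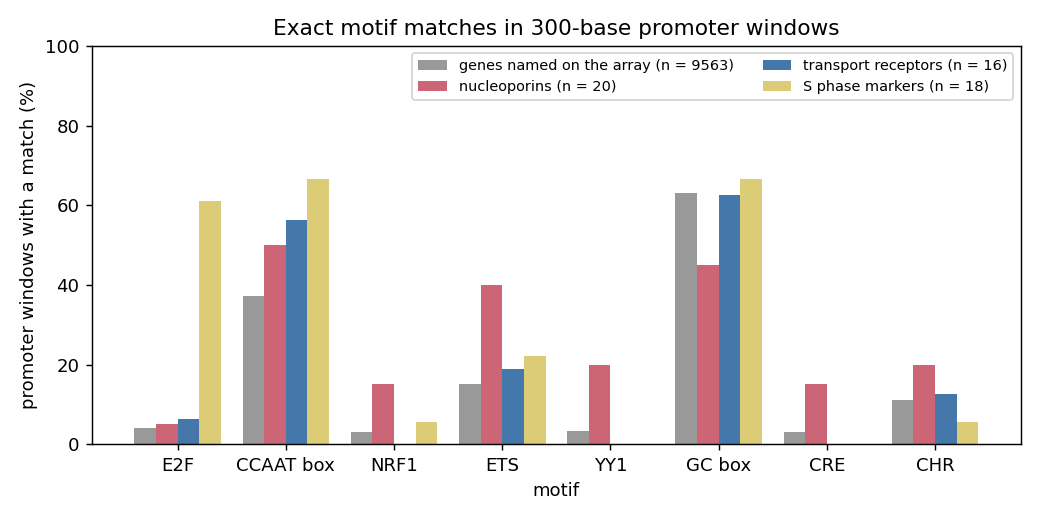
Share of promoter windows with at least 1 exact match (vertical axis, percent, from 0) for each motif (horizontal axis), in genes named on the array (grey, 9563 windows), nucleoporins (red, 20), transport receptors (blue, 16) and S phase markers (yellow, 18). E2F letters are in 61.1% of the S phase windows and 5.0% of the nucleoporin windows.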

How the data were processed

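Biotin-labelled cRNA from 3 control siRNA and 3 OCRL siRNA samples was hybridised to Affymetrix GeneChips, 1 array per sample, per the labels' protocols. The authors deposited 1 log2 intensity per probe set and array. The submitters' processing notes name affy and RMA; versions are not given in the sources used here. RMA removes a change shared by most genes and compresses differences of dim probe sets. Of 22277 probe sets, 62 AFFX controls were left out and 22215 tested. Symbols came from GEO's platform annotation, updated through Entrez identifiers: 19064 probe sets had 1 symbol, 1043 several and 2108 none, and only the first were named.

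The test was two-sided, from lmFit and eBayes of limma 3.58.1 (R 4.3.3) on a model with the group alone. Called means a Benjamini-Hochberg adjusted p, taken over all 22215 probe sets, under 0.05. Values are mean ± SD of 3 arrays, a difference is the OCRL siRNA mean minus the control mean in log2 units, with a moderated SE and a 95% interval. No filter on low values was used. The number of arrays limits the precision. Nucleoporins and receptors were all named, with single arrays given for those called, for the 2 others of each kind with the smallest p, and for several more named after their values were seen, as were non-leading probe sets; from other lists up to 4 called genes with the smallest p were named, or 1 where none was called. The members and lists were chosen with earlier results of these data known. The fit was tested on simulated data over the 22215 probe sets with known changes in 200 of them. It recovered 29.2% of 1.25-fold and 72.8% of 1.5-fold changes, and 4.31% of its calls were false. Changes below 1.25-fold, the size of most nucleoporin calls, were not simulated, and far more probe sets were called in the data than were changed there. Alternatives were leaving out each array, a block for the replicate number, quantile normalisation, median centring, weights per array, limma's trend with robust settings, leaving out dim probe sets or those ending in _s_at and _x_at, a 1.5-fold minimum, and other choices of probe set per gene. Figures were drawn with matplotlib 3.10.9.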

Additional observations from a re-analysis of the deposited data

How the results depend on the processing

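The 4 kinds of count moved with the setting, and the knockdown of OCRL kept its direction and call in each setting that could be run for it. Both OCRL probe sets end in _s_at, so leaving those out gave no value for it. A 1.5-fold minimum left 806 probe sets, 1 nucleoporin, 0 transport receptors and 1 other transport gene. With probe sets ending in _s_at and _x_at left out, 2348 of 11813 probe sets, 2 of 15 nucleoporins and 9 of 43 other transport genes were called. The main count of other transport genes was 16 of 67. It was 26 of 67 with trend and robust settings, where 6378 of 22215 probe sets were called. With dim probe sets left out it was 25 of 61, where 5651 of 11108 probe sets were called. The most variable probe set of each gene gave 7 of 20 receptors, and with dim probe sets left out there were 6 of 18. Leaving out each array in turn gave 5 to 8 nucleoporins, 1 to 3 receptors, 7 to 17 other transport genes and 3576 to 4898 probe sets.

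Among values called on either side, signs turned for NUP54 (-0.29 without _s_at and _x_at probe sets and with the most variable probe set, -0.03 with the mean of probe sets), and, with the most variable probe set, for KPNA1 (-0.12), IPO9 (-0.32) and KPNB1 (-0.21). Differences that were not called crossed 0 in at least 1 setting for NUP88, NUP93, NUP188, NUP214, IPO5, IPO9, KPNB1, TNPO2 and XPO1, with turned values from -0.15 to 0.02. For NUP88, NUP188, KPNB1 and XPO1 median centring was among these settings. IPO7 and TNPO1, at 0.00 in the main fit, also took both signs, from -0.12 to 0.05 in IPO7 and up to 0.03 in TNPO1. NUP37 and NUP153 reached 0.00. The cause was not tested. Signal over background was not used here. Same-numbered arrays of the groups correlated at 0.142, 0.123 and -0.009 in their deviations from the group means, so the numbers were not taken to pair them, and not every array correlated best with its own number. The replicate block called 4571 probe sets, 7 nucleoporins and 3 receptors; NUP50 (adjusted p = 0.0683) and KPNA4 (0.0631) lost their calls.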

Other observations

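Genes of the nuclear lamina and inner nuclear membrane, which holds the pores, had calls in both directions: 1 of 17 rose, 3 fell, and the median log2 difference was 0.00. The 23.5% called was near the 26.0% of all genes. LMNA and TMPO, named after their values were seen, were not called in the brightest probe set. Of their other probe sets, 2 of 3 for LMNA and 1 of 2 for TMPO were called higher. TOR1AIP1, an inner membrane activator of torsin ATPases, fell 1.68-fold (log2 difference -0.75, SE 0.040, adjusted p = 7.51e-05, limma), lower in 3 of 3 arrays, and its other 2 probe sets were also called lower. LEMD3, an inner membrane protein that binds SMAD factors, fell by 0.31 (SE 0.052) and SYNE1, which links the envelope to the cytoskeleton, by 0.29 (SE 0.070). LMNB1, a B-type lamin, rose by 0.17 (SE 0.046). The calls of TOR1AIP1 and LEMD3 held with each array left out, while those of SYNE1 and LMNB1 were lost without 4 and 5 of the 6 arrays in turn, and that of LMNB1 also after median centring.

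Of 10 measured genes of the SUMO pathway, part of which is bound to the pore, 2 rose and 2 fell, 40.0% against 26.0% of all genes. PIAS3, a SUMO ligase, fell by 0.52 (SE 0.070, adjusted p = 0.00237, limma) and held its call with each array left out. SENP5, a SUMO protease, fell by 0.18 (SE 0.045) in its brightest probe set, while another of its probe sets was called higher. SAE1, a subunit of the SUMO activating enzyme, rose by 0.21 (SE 0.044) and PIAS2 by 0.19 (SE 0.044). The calls of SAE1, PIAS2 and SENP5 were lost without 3, 4 and 4 of the 6 arrays in turn, and that of PIAS2 also after quantile normalisation or median centring.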
